A study of Arabidopsis thaliana with 15 samples.

Results

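The genes described here were 94 of the 28775 genes in the table of normalized counts. Each was moderately lower after induction of the meristem regulator SHOOT MERISTEMLESS (STM). Each was also higher in a line with a microRNA against STM and its relative BREVIPEDICELLUS than in ap1-1. A member had a mean in dexamethasone-sprayed (DEX) 35S::STM-GR plants at most 1/1.3 of, but above 0.6 times, its mean in mock-sprayed 35S::STM-GR plants, with every DEX library below every mock library. It also had a mean in the microRNA line at least 1.3 times its mean in ap1-1, with every microRNA library above every ap1-1 library, and means of at least 30 normalized counts in the mock group and in the microRNA line. Values from these 4 groups chose the members, so the members' differences within them are given as a description, with no test. The DEX against mock conditions alone, with the level required in the mock group only, were met by 890 genes. The microRNA line against ap1-1 conditions alone, with the level required in the microRNA line only, were met by 1069. Set beside the 18059 genes at the level in both groups, these counts came to 4.93% and 5.92%. Some of the genes counted may lie outside those 18059, so the percentages are approximate. The members were 10.6% of the first set and 8.79% of the second.

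RNA sequencing was performed on inflorescence meristem tissue of Arabidopsis thaliana plants of the Ler background, all grown for 6 weeks at 21 °C, in 15 libraries of 6 groups. Untreated plants, per the labels, were wild type (2 libraries), ap1-1 (3), a mutant in the floral identity gene AP1, and the microRNA line (2), in which the AP1 promoter drives a microRNA against STM and BREVIPEDICELLUS in an ap1-1 plant. The 35S::STM-GR plants, in which the constitutive viral 35S promoter drives STM fused to the steroid-binding part of the glucocorticoid receptor, were sprayed either with mock solution of 0.02% Silwet (n = 3) or with 10 µM DEX in the same solution (n = 3). The last group was wild type given the DEX spray (n = 2), and tissue of sprayed plants was collected 5 h later. The sample labels name the allele ap1-1 where the study's design text names ap1-4. The labels do not say how many plants or transformed lines a library holds, nor that replicates were grown apart, so p-values measure the spread between these libraries, which may be technical.

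STM and BREVIPEDICELLUS (KNAT1 in the annotation) are KNOX homeobox transcription factors that keep cells of the shoot meristem from differentiating, in part through cytokinin and gibberellin. The fusion protein stays in the cytoplasm until DEX lets it enter the nucleus. AP1 is a MADS-box factor that gives young floral meristems their identity, and its promoter acts in those meristems and later in sepals and petals.

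Targeted transcripts were read first. STM stood at 727 and 709 normalized counts in the microRNA line and at 1144, 1009 and 1120 in ap1-1. KNAT1 stood at 906 and 942 in the microRNA line and at 1467, 946 and 1249 in ap1-1. Both were lower in every microRNA library than in every ap1-1 library, although for KNAT1 the nearest libraries nearly touched. In unsprayed wild type KNAT1 stood at 772 and 856, below both microRNA libraries. STM, with transgene reads included, was 18492 to 18820 in mock-sprayed and 17712 to 19935 in DEX-sprayed 35S::STM-GR, against 1058 to 1225 in the wild type libraries. All 7 inflorescence meristem markers were detected, as were the mature pollen and tapetum markers given below, so detection does not show meristem tissue alone. Library totals were 18717248 to 26539358 gene counts. On the first principal component (57.0% of the variance) the microRNA libraries lay apart at -114 and -113, with the other libraries between -31.7 and 54.9. Chi-square per gene between replicates was 14.8 in wild type and 18.1 to 33.6 in ap1-1, but 3.23 to 7.95 in the other groups.

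All 94 members were protein-coding and lay on all 5 chromosomes (22, 15, 16, 19 and 22 genes on chromosomes 1 to 5). Neighbouring members were the Rubisco small-subunit genes RBCS3B, RBCS2B and RBCS1B, the transporter genes UMAMIT46 and UMAMIT47, and the ferritin gene FER3 with the receptor kinase gene MRLK. The 250 bases upstream of the annotated starts of the Rubisco genes are shown because these neighbours shared the pattern, and that of NIK1 because it holds a KNOX-type motif. Capitals mark CACGTG (the G-box of light-responsive plant promoters), GATAAG (the I-box) and TGACAG (bound by KNOX and BELL proteins) on either strand. Sequences run 5′ to 3′ toward the gene and come from RefSeq, build TAIR10.1.
RBCS3B, chr5:15378643-15378892, minus strand: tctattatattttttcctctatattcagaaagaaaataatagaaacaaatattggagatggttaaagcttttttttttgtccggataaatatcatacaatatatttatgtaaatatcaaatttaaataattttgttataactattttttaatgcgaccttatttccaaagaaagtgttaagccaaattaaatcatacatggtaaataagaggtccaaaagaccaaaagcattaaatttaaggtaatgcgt
RBCS2B, chr5:15382072-15382321, minus strand: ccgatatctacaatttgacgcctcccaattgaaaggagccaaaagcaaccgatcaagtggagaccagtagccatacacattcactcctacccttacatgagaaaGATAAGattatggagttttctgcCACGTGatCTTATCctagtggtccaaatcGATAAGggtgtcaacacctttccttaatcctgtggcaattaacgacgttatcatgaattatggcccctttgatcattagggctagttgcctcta
RBCS1B, chr5:15385321-15385570, minus strand: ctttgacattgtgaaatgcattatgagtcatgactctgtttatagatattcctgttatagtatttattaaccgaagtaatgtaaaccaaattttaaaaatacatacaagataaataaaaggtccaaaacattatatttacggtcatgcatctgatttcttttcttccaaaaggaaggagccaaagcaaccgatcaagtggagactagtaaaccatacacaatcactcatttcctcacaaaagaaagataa
NIK1, chr5:5223684-5223933, plus strand: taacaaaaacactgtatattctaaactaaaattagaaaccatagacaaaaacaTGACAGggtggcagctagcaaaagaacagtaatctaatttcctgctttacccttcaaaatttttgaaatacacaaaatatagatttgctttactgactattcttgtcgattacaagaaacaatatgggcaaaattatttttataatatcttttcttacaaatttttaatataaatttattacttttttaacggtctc

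The RBCS2B window held 1 G-box and 3 I-boxes, while those of RBCS3B and RBCS1B held none of these motifs. The windows end at the annotated starts, which need not lie at matching places in these genes. That of RBCS1B ends in gataa, the I-box without its last base, after a stretch like that before the first RBCS2B I-box. Absence from a window thus does not show absence from a promoter. TGACAG occurred in 5 of the 94 member windows (5.32%) and in 5.86% of the 26709 protein-coding gene windows of the same length. The shorter core TGAC, which every TGACAG contains, occurred in 69.1% of member windows and 75.5% of all windows. CACGTG occurred in 3.19% and 6.58%, and GATAAG in 8.51% and 12.2%, respectively. These are matches of letters in a short window, and their use by any factor was not measured.

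Values below are normalized counts, the gene count divided by the library's size factor. In the contrasts that chose them, the members' ratio of DEX to mock means ran from 0.601 to 0.769 with a median of 0.699, and their ratio of microRNA line to ap1-1 means ran from 1.3 to 4.21 with a median of 1.46. Over all genes at the level the medians were 0.995 and 1.01. The largest microRNA line ratio was that of AT4G17470, a predicted hydrolase, followed by CYP72A11, a cytochrome P450, at 3.48. In bulk tissue, fewer cells of a type and less RNA per cell cannot be told apart. Besides the genes picked by a set rule, some members were named after their values were seen. These were NGA3, SDD1, SKS1, sks3, UMAMIT46, FER3, PCNA1, MLP43, YSL1, SUS6, SBP2, c-NAD-MDH3, ULP1B and the members given by locus identifier.

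**Figure D1:**
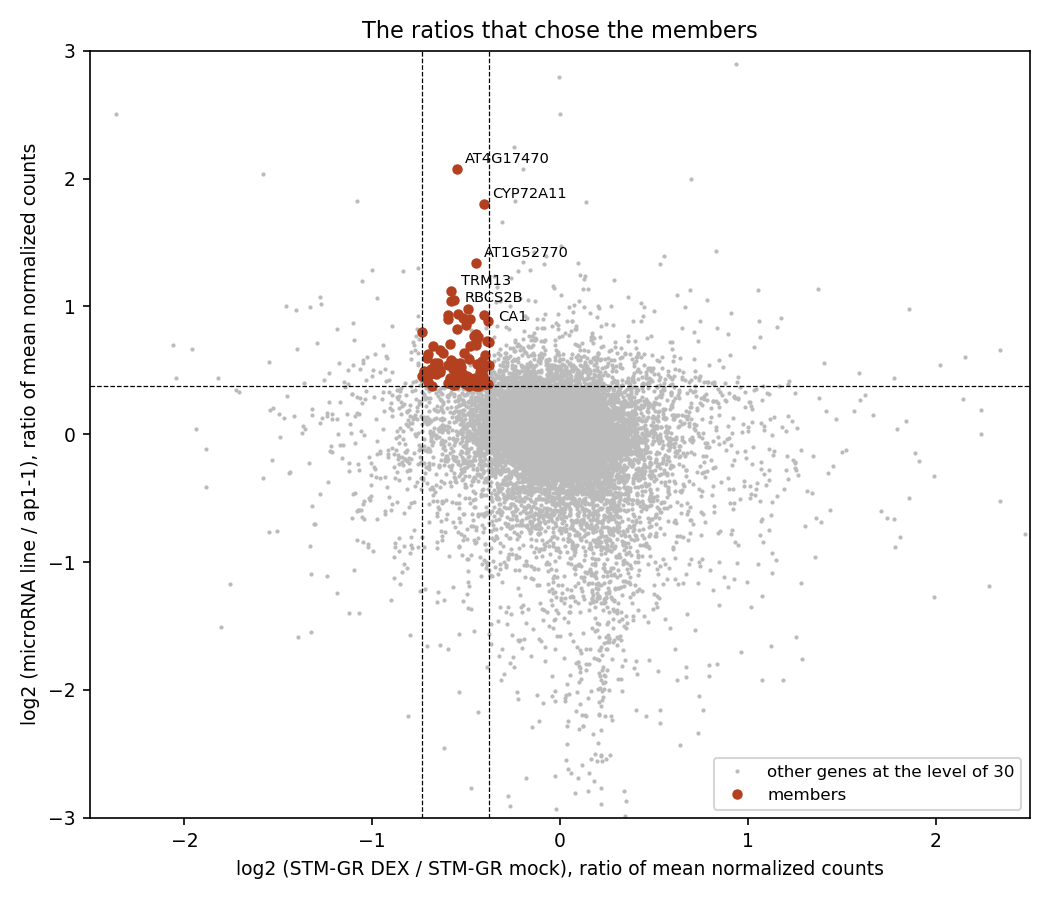
Each point is a gene with means of at least 30 in the STM-GR mock group and in the microRNA line; the x axis is log2 of the DEX to mock ratio of mean normalized counts and the y axis log2 of the microRNA line to ap1-1 ratio. Dashed lines are the limits of 0.6, 1/1.3 and 1.3, the 94 members are red, and 47 of the 18059 genes lie outside the axes. Members fill a narrow band of DEX to mock ratios (0.601 to 0.769), and AT4G17470 reaches the highest microRNA line ratio, 4.21.

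At the limits, the proline transporter gene PROT2 was just inside the upper DEX to mock limit with a ratio of 0.7692, and EGL3, a bHLH regulator of epidermal cell fate, was just outside with 0.7708. At the lower limit AT2G38995 was inside with 0.6008 and TPPE, a trehalose phosphatase gene, outside with 0.5978. For the microRNA line over ap1-1, BBX17, a B-box zinc finger gene, was just inside with means of 1024 and 787, and AT2G46420 was outside with a ratio of 1.296.

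Across all 6 groups, 82 members had their highest mean in the microRNA line and 80 their lowest in DEX-sprayed 35S::STM-GR. By the choice, no member could peak in ap1-1 or STM-GR DEX, or be lowest in the microRNA line or STM-GR mock. Nothing is therefore read from these counts. The lowest mean was in ap1-1 for 13 members and in DEX-sprayed wild type for MLP43. Of the other 12, 5 peaked in mock-sprayed 35S::STM-GR (YSL1, MAM1, SUS6, AT4G19050 and AT5G04700), 4 in DEX-sprayed wild type (GSTU20, ARGAH2, SBP2 and c-NAD-MDH3) and 3 in unsprayed wild type (AT3G05980, AT1G77020 and AT2G36430).

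**Figure D2:**
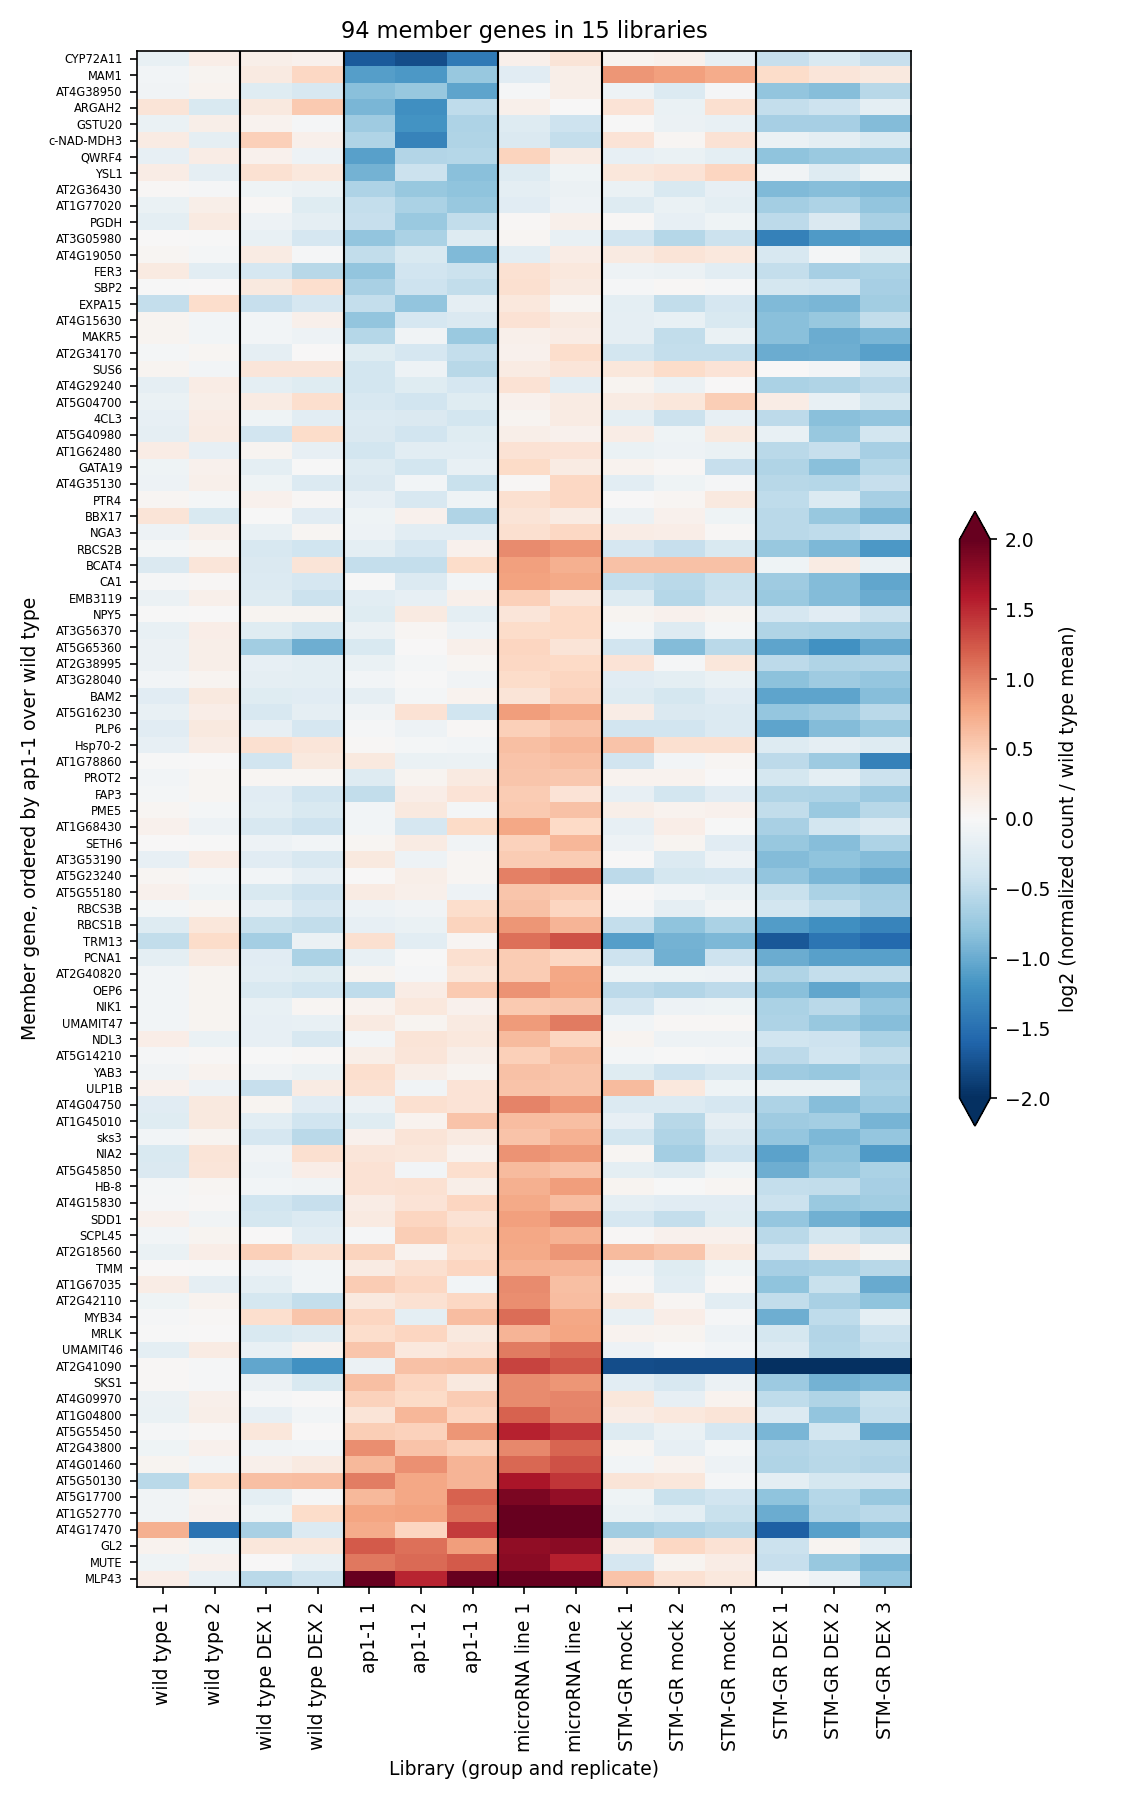
Rows are the 94 members, ordered by their ap1-1 to wild type ratio, and columns are the 15 libraries; colour is log2 of the normalized count over the mean of unsprayed wild type, with 11 of 1410 values beyond the scale limits of 2. The 2 microRNA columns are red for most genes and the 3 STM-GR DEX columns blue, while ap1-1 runs from blue at the top to red at the bottom.

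Some members act in carbon fixation in the chloroplast. RBCS3B (AT5G38410), RBCS2B (AT5G38420) and RBCS1B (AT5G38430) on chromosome 5 encode the small subunit of Rubisco, which fixes carbon dioxide. Averaged over all libraries and divided by exon length, RBCS3B reached 29313 and RBCS2B 17183 normalized counts per kilobase, the highest of the members, followed by the glutathione transferase gene GSTU20 at 6243 and OEP6 at 5412. RBCS2B stood at 33424 and 31618 in the microRNA line, 15122, 13666 and 18270 in ap1-1, and 16777 and 17753 in wild type. In sprayed plants it stood at 13850 and 13055 in wild type with DEX, 13640, 12595 and 14011 in STM-GR mock, and 10166, 9272 and 7770 in STM-GR DEX. The microRNA libraries were above all others and the STM-GR DEX libraries below all others. Its group means were 32521 ± 1277 (SD, n = 2) in the microRNA line and 15686 ± 2354 (SD, n = 3) in ap1-1, a ratio of 2.07, and its DEX to mock ratio was 0.676.

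RBCS3B showed a smaller difference, with 63697 and 56889 in the microRNA line against 39724, 40262 and 53969 in ap1-1 and 41139 and 43701 in wild type. The third ap1-1 library came close to the lower microRNA library. RBCS1B stood at 12866 and 11163 in the microRNA line and at 6231, 6361 and 9479 in ap1-1, with 4999, 4007 and 4504 in STM-GR mock and 3222, 2980 and 2801 in STM-GR DEX. RBCS1A on chromosome 1, the remaining small-subunit gene and no member, stood at 179755 and 158624 in the microRNA line and at 129695, 138593 and 183234 in ap1-1, so its libraries overlapped. Coding sequences of the 3 member genes were 94.1% to 97.3% identical, so reads could have been shared or lost among them, and the split between the copies is uncertain.

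CA1 (AT3G01500), a chloroplast carbonic anhydrase that interconverts carbon dioxide and bicarbonate, stood at 29395 and 28351 in the microRNA line and at 16677, 13976 and 16165 in ap1-1. It stood at 12131, 11643 and 12413 in STM-GR mock and 10287, 9236 and 8199 in STM-GR DEX, with wild type at 16582 and 17095. Every mock library was thus already below both unsprayed wild type libraries. CA2, a related carbonic anhydrase gene and no member, had a microRNA line to ap1-1 ratio of 1.78 and a DEX to mock ratio of 0.935. OEP6, a protein of the outer chloroplast envelope, had means of 5419 ± 311 (SD, n = 2) in the microRNA line and 3271 ± 1115 (SD, n = 3) in ap1-1, where the libraries ranged from 2118 to 4343. The summed level of 9 other photosynthetic marker genes was 387079 to 443354 in the microRNA line and 396798 to 565609 in ap1-1, so the groups overlapped. It was 390898 to 399780 in STM-GR mock, 369124 to 406123 in STM-GR DEX, 377199 to 382952 in wild type with DEX and 432672 to 435077 in wild type, and the mock and DEX groups of 35S::STM-GR overlapped too. All 9 were detected, and their part in the members' values was not tested.

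**Figure D3:**
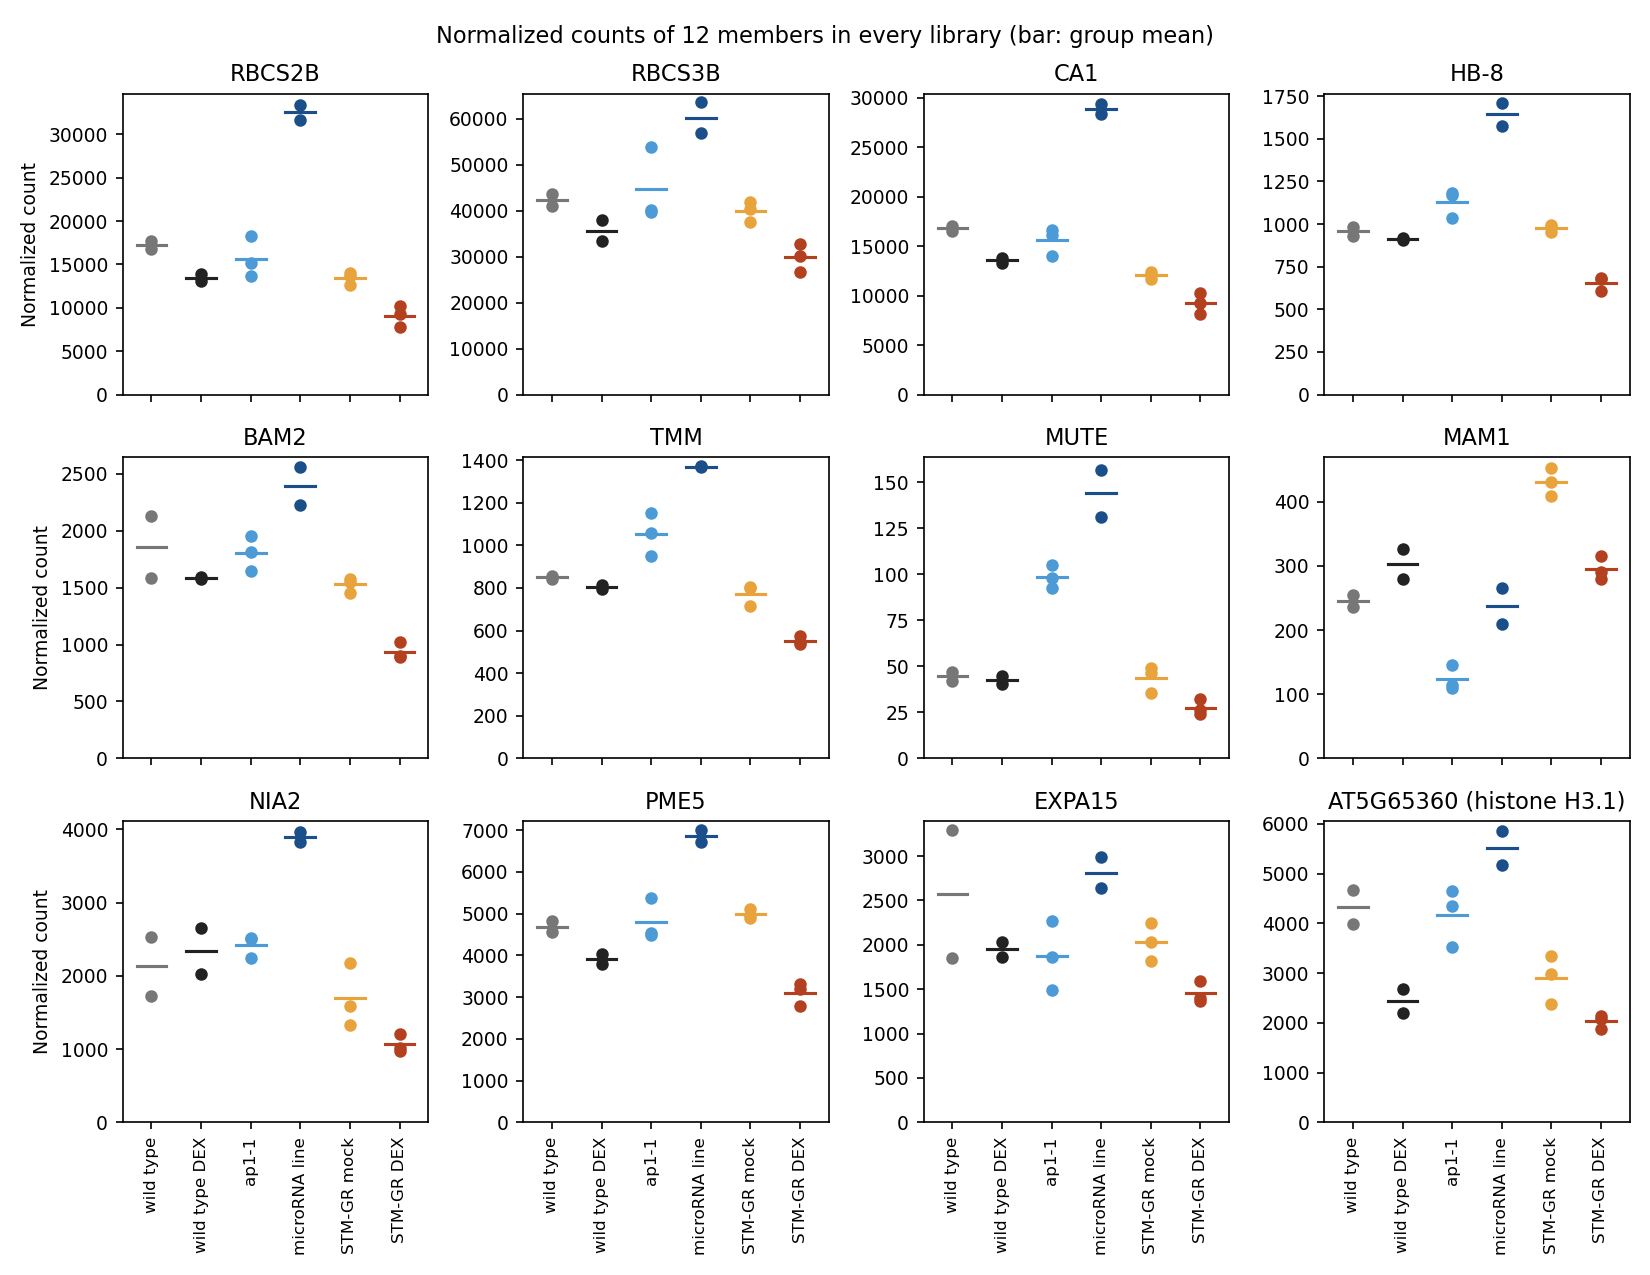
Normalized counts (y axis, from 0) of 12 members in every library of the 6 groups (x axis); points are libraries and bars are group means. For RBCS2B, CA1, HB-8 and PME5 the microRNA libraries stand above and the STM-GR DEX libraries below all others, whereas MAM1 is lowest in ap1-1 and highest in STM-GR mock.

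MUTE, TMM and SDD1 act in the stomatal lineage, the cell lineage that makes the pores of the epidermis. MUTE (AT3G06120), a bHLH factor that ends stem-cell-like divisions and commits a cell to form guard cells, stood at 157 and 131 in the microRNA line, 92.7, 98.1 and 105 in ap1-1, and 42.3 and 47.2 in wild type. It stood at 44.9 and 40.3 in wild type with DEX, 35.3, 46.2 and 49.4 in STM-GR mock, and 32.3, 26.3 and 24.0 in STM-GR DEX. The order was therefore microRNA line, ap1-1, then wild type, wild type with DEX and STM-GR mock, which overlapped, and STM-GR DEX lowest. TMM, a receptor-like protein that spaces stomata, stood at 1371 and 1365 in the microRNA line and at 949, 1056 and 1150 in ap1-1, with 856 and 844 in wild type. Its mock libraries held 806, 715 and 798 and its DEX libraries 537, 546 and 576. SDD1, a subtilisin-like protease that limits stomatal density, had means of 230 ± 14.0 (SD, n = 2) in the microRNA line and 153 ± 13.1 (SD, n = 3) in ap1-1, and of 97.5 ± 7.72 and 65.3 ± 7.01 (SD, n = 3 each) in STM-GR mock and DEX.

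Another 13 genes of that lineage, looked up for their role after the members were known, were no members, and the lineage as a whole was not tested. Their DEX to mock ratios ran from 0.530 to 1.01 with a median of 0.871, and their microRNA line to ap1-1 ratios from 0.897 to 1.32 with a median of 1.14. SPCH, the bHLH factor that starts the lineage, stood at 108, 121 and 105 in STM-GR DEX and 228, 208 and 197 in mock, a ratio of 0.530 that is below the lower limit. In the microRNA line SPCH stood at 319 and 335, within the ap1-1 range of 326 to 415 or just below it. EPF2, a peptide signal of early lineage cells, and POLAR, a polarity protein, were also below the lower limit, at 0.546 and 0.588, with microRNA line to ap1-1 ratios of 0.982 and 0.991. The polarity gene BASL had ratios of 0.757 and 1.15, with overlapping libraries in DEX and mock. FAMA, which acts after MUTE, had ratios of 0.833 and 1.09, and its partners SCRM and SCRM2 had DEX to mock ratios of 0.941 and 0.815. Receptor kinase genes ERL1 and ERL2 had DEX to mock ratios of 0.894 and 0.981, the peptide genes EPF1 and EPFL9 0.871 and 0.877, the homeodomain gene HDG2 0.887 and the kinase gene YDA 1.01. Among the 13, the microRNA line conditions were met by 2 genes, EPFL9 and ERL2, and the DEX to mock conditions by 0.

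Receptors and their regulators came next. BAM2 (AT3G49670), a receptor kinase related to the meristem receptor CLAVATA1, stood at 894, 897 and 1023 in STM-GR DEX and at 1550, 1454 and 1578 in mock, a ratio of 0.614. In unsprayed plants BAM2 stood at 2229 and 2560 in the microRNA line, 1641, 1811 and 1953 in ap1-1 and 1580 and 2130 in wild type, where the replicates differed more than the ap1-1 libraries did. BAM3, a further relative and no member, had a DEX to mock ratio of 0.834 and a microRNA line to ap1-1 ratio of 1.31. CLV1, which encodes CLAVATA1 and is no member, had the opposite direction after induction, with 1723, 1761 and 1655 in DEX and 1233, 1247 and 1102 in mock. MRLK, a receptor kinase of meristems, NIK1, a receptor kinase of antiviral defence, and MAKR5, a membrane protein that modulates receptor kinase signalling, had DEX to mock ratios of 0.727, 0.719 and 0.638. Their microRNA line to ap1-1 ratios were 1.33, 1.33 and 1.47. MAKR5 stood at 132 and 136 in the microRNA line against 82.5, 117 and 73.7 in ap1-1, while wild type, at 128 and 118, was nearer the microRNA line. Leucine-rich repeat kinase genes AT3G28040 and AT3G56370 had microRNA line to ap1-1 ratios of 1.36 each, and AT5G14210 had means of 2306 ± 126 (SD, n = 2) and 1770 ± 97.4 (SD, n = 3).

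Among transcription factors, HB-8 (AT4G32880), a homeodomain-leucine zipper factor of procambium and xylem formation, stood at 686, 679 and 607 in STM-GR DEX and 997, 955 and 983 in mock. HB-8 stood at 1576 and 1711 in the microRNA line, 1170, 1183 and 1034 in ap1-1, 933 and 982 in wild type and 921 and 909 in wild type with DEX. Its mock and wild type libraries overlapped, so the DEX libraries were the ones that stood low. YAB3, a YABBY factor of the abaxial side of lateral organs, stood at 1767 and 1745 in the microRNA line, 1488, 1288 and 1227 in ap1-1, 994, 890 and 945 in mock and 725, 702 and 742 in DEX. Its close relative FIL was no member, with 2290 and 2245 in the microRNA line inside the ap1-1 range of 1827 to 3038. GL2, a homeodomain factor of trichome and root-hair fate, stood at 228 and 234 in the microRNA line, 157, 144 and 119 in ap1-1 and 70.4 and 63.2 in wild type, and its DEX libraries (49.8, 69.7 and 59.2) lay just below its mock libraries (72.3, 89.2 and 81.7). GATA19, a GATA factor, NGA3, a B3-domain factor of style development, and BBX17 had DEX to mock ratios of 0.678, 0.662 and 0.622. MYB34, a regulator of indole glucosinolate synthesis, varied widely within groups, at 42.5, 58.6 and 73.0 in DEX and 112, 72.6 and 128 in ap1-1.

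Members with a role in the cell wall included PME5, a pectin methylesterase, EXPA15, an expansin that loosens walls, and the multicopper oxidase-like genes SKS1 and sks3. PME5 (AT5G47500) stood at 3321, 2794 and 3187 in STM-GR DEX and 5102, 4901 and 4970 in mock, a ratio of 0.621. It stood at 6708 and 7006 in the microRNA line, 4498, 5364 and 4540 in ap1-1 and 4815 and 4559 in wild type, so ap1-1 and wild type overlapped. EXPA15 was less clear because wild type held 1847 and 3298, a spread that covered every ap1-1, mock and microRNA library but 2. Those 2 exceptions were an ap1-1 library at 1494 and a mock library at 1820. SKS1 and sks3 had DEX to mock ratios of 0.641 and 0.753 and microRNA line to ap1-1 ratios of 1.41 and 1.37. AT3G53190, annotated as a pectin lyase-like protein, had ratios of 0.605 and 1.37, and AT5G55180, annotated as an O-glycosyl hydrolase, 0.697 and 1.39.

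Nitrogen and amino acid genes included NIA2 (AT1G37130), the main nitrate reductase, which stood at 3963 and 3822 in the microRNA line, 2511, 2501 and 2241 in ap1-1 and 1719 and 2536 in wild type. NIA2 stood at 1014, 1209 and 973 in STM-GR DEX and 2181, 1328 and 1591 in mock, where the nearest libraries of the groups differed little. NIA1, the other nitrate reductase gene and no member, stood at 1698 and 1679 in the microRNA line and 1823, 1678 and 1479 in ap1-1. UMAMIT46 and UMAMIT47, adjacent genes of an amino acid exporter family, had microRNA line to ap1-1 ratios of 1.65 and 1.75 and DEX to mock ratios of 0.769 and 0.601. ARGAH2, an arginase, was lowest in ap1-1, with 758, 611 and 1001 against 1531 and 1433 in the microRNA line and 1697 and 1152 in wild type. PROT2 stood at 690 and 681 in the microRNA line, 394, 489 and 529 in ap1-1 and 454 and 484 in wild type.

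MAM1 and BCAT4 encode early enzymes of methionine chain elongation for aliphatic glucosinolates, the defence compounds of this plant family. MAM1 (AT5G23010) stood at 209 and 265 in the microRNA line, 114, 110 and 145 in ap1-1 and 236 and 255 in wild type, so the microRNA line overlapped wild type and ap1-1 was low. It stood at 452, 431 and 409 in STM-GR mock, 315, 291 and 280 in STM-GR DEX and 279 and 327 in wild type with DEX. The STM-GR DEX libraries thus overlapped DEX-sprayed wild type, and the mock libraries were above every other library. BCAT4 stood at 506 and 471 in the microRNA line, above its mock libraries at 433, 429 and 433. It stood at 207, 206 and 372 in ap1-1, 234 and 340 in wild type, 270, 322 and 263 in STM-GR DEX and 236 and 342 in wild type with DEX, so these 4 groups overlapped.

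Another 5 genes of aliphatic glucosinolate synthesis, looked up for their role after the members were known, were no members, and 0 of them met the DEX to mock conditions. The cytochrome P450 genes CYP79F1 and CYP83A1 had DEX to mock ratios of 1.03 and 0.922 and microRNA line to ap1-1 ratios of 1.84 and 1.40. The regulators MYB28 and MYB29 had DEX to mock ratios of 1.03 and 1.08, and microRNA line to ap1-1 ratios of 0.985 and 2.38. MAM3, a relative of MAM1 with every group mean under 30, had ratios of 3.01 and 0.510. CYP83A1 stood at 1891, 1713 and 2773 in ap1-1, 2991 and 2969 in the microRNA line and 4650 and 5854 in wild type.

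Set against unsprayed wild type, the members fell into 3 kinds by their ap1-1 libraries. These comparisons share libraries with the choice and are described without a test. In 27 members every ap1-1 library was below every wild type library, in 23 every one was above, and in 44 they overlapped, where 15.9% of all 21716 genes tested were below and 16.4% above. CYP72A11 (AT3G14650) is the clearest of the first kind, at 100, 94.4 and 121 in ap1-1, 290 and 353 in wild type and 346 and 386 in the microRNA line. Its microRNA line to ap1-1 ratio of 3.48 thus stood beside a microRNA line to wild type ratio of 1.14. QWRF4, of a family of microtubule-associated proteins, GSTU20, a glutathione transferase, MAM1 and ARGAH2 were also of this kind.

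For those 27 members the microRNA libraries were all above wild type in 11, overlapped it in 13 and were all below it in 3 (GSTU20, c-NAD-MDH3 and AT2G36430). For the 23 members with ap1-1 above wild type, the microRNA libraries were all above wild type in 23, which the choice fixed, since every microRNA library is above every ap1-1 library in a member. For the 44 that overlapped, the microRNA libraries were all above wild type in 41. In all, 75 of 94 members were higher than wild type in every microRNA library and 3 were lower, beside 34.1% and 33.3% of all genes tested. The 75 include those 23 and rest on libraries that chose the members, so nothing is read from the shares. MLP43, a major-latex-protein-like gene, had the highest ap1-1 to wild type ratio, 4.24, with 191, 123 and 230 in ap1-1, 274 and 289 in the microRNA line and 47.0 and 38.7 in wild type. TRM13, of a family that recruits proteins to microtubules, stood at 569 and 641 in the microRNA line, 333, 229 and 274 in ap1-1 and 189 and 344 in wild type, so only its microRNA libraries stood apart among the unsprayed groups. AT4G17470 had microRNA libraries at 1910 and 1836 and ap1-1 libraries at 394, 317 and 623, but its wild type libraries were at 388 and 85.0, the first inside the ap1-1 range and the other far below it.

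**Figure D4:**
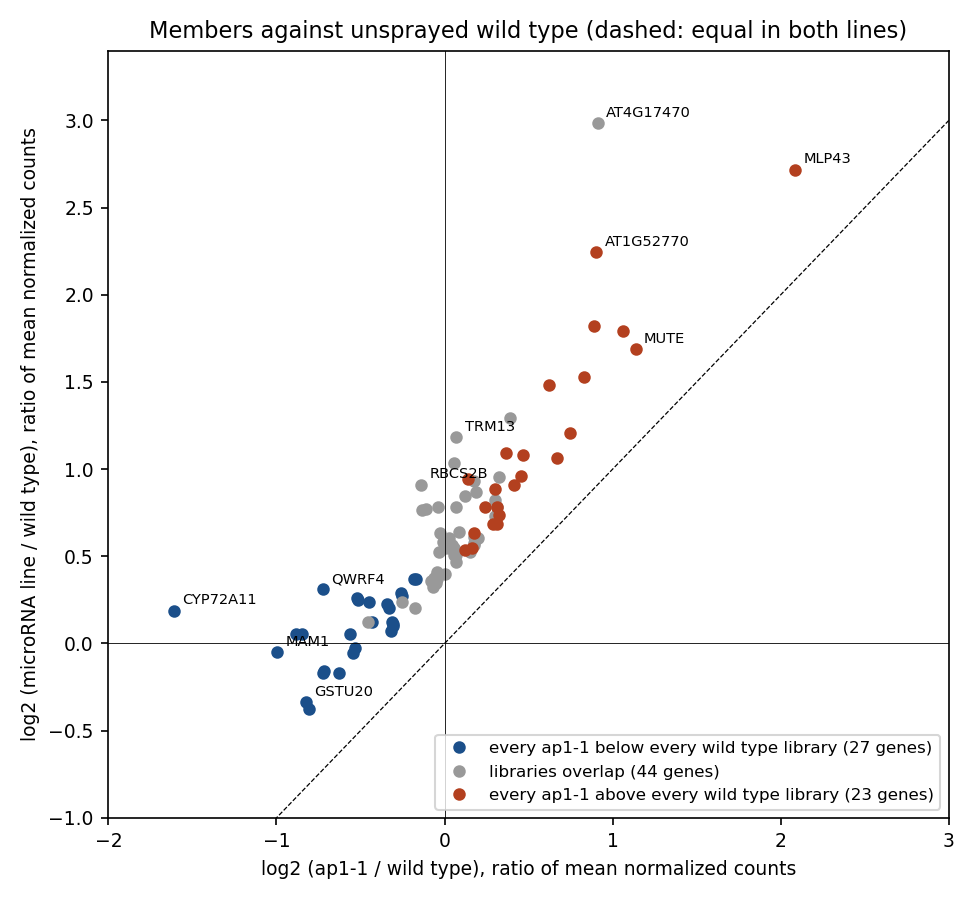
Each point is a member; the x axis is log2 of the ap1-1 to wild type ratio of mean normalized counts and the y axis log2 of the microRNA line to wild type ratio, with the dashed line where both are equal. Blue, grey and red mark the 27, 44 and 23 members whose ap1-1 libraries were all below, overlapped or were all above wild type; MAM1 and GSTU20 lie at or below 0 on the y axis and MUTE and MLP43 far above it.

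Mature pollen markers moved with the microRNA line. The summed level of 6 of them, all detected, was 5137 to 5242 there, against 18060 to 23508 in ap1-1 and 19780 to 38152 in the other groups. Summed tapetum and pollen wall markers (12 detected of 12) were 22051 to 24044 in the microRNA line and 16763 to 22028 in ap1-1. Xylem and phloem markers (11 of 11) were 6320 to 6519 and 6325 to 7189. The part of these tissues in the members' values was not tested.

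Against DEX-sprayed wild type, which shared the spray but not the transgene, STM-GR DEX means were lower for 93 members, with a median ratio of 0.698 and a range of 0.437 to 1.17. The exception was MLP43. Every STM-GR DEX library was below both DEX-sprayed wild type libraries in 86 members, beside 26.0% of all genes tested. The STM-GR DEX libraries chose the members as low in them, so nothing is read from this share. The 8 members that overlapped were MAM1, BCAT4, MLP43, FER3, ULP1B, AT4G15830, AT5G40980 and AT1G68430. Mock-sprayed 35S::STM-GR against unsprayed wild type had a median ratio of 0.937, with 13 members higher and 31 lower in every library, beside 18.5% and 18.6% of all genes. The mock libraries also chose the members, and here genotype and spray differ together and cannot be told apart.

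Neither wild type group, with or without DEX, was among the groups that chose the members. The tests took their spread from all 15 libraries, though, including those that had to stand apart in a member. The members' p-values are therefore not fully independent of the choice. Sprayed and unsprayed plants differ in spray and DEX alike. edgeR's quasi-likelihood test, fitted on all 15 libraries with Benjamini-Hochberg adjustment over 21716 genes, called 2 of 94 members lower (2.13%), beside 0.134% of all genes, and 0 higher, beside 0.484%. At an unadjusted p under 0.05, 19 members were lower and 3 higher, beside 5.01% and 4.93% of all genes tested. DESeq2 called 2 members lower and 0 higher, beside 0.343% and 0.735% of the 22452 genes with an adjusted p. The other 92 members did not pass, which does not show that they were unaltered.

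AT2G41090, a calmodulin-like calcium-binding protein with EF hands, stood at 402 and 360 in DEX-sprayed and 842 and 818 in unsprayed wild type. Its log2 fold change was -1.12 ± 0.19 (SE) with an edgeR adjusted p of 0.00900. It was also low in mock-sprayed 35S::STM-GR, at 243, 239 and 240, and lowest in DEX, at 187, 187 and 144, so each group of sprayed plants was below each group of unsprayed plants. AT5G65360, a gene for the replication-coupled histone H3.1, stood at 2673 and 2188 with DEX and 3981 and 4675 without, a log2 fold change of -0.83 ± 0.16 (SE) with an edgeR adjusted p of 0.0271. Histone genes share near-identical copies, which makes the count of any single copy uncertain. PCNA1, the sliding clamp of DNA replication, stood at 679 and 512 with DEX and 695 and 897 without, and did not pass the test (edgeR adjusted p = 0.482). Both calls were lost on leaving out either DEX-sprayed library or the second unsprayed library, when edgeR adjusted p was 0.0600 to 0.220 for AT2G41090 and 0.0610 to 0.515 for AT5G65360. The call of AT5G65360 was also lost with only the 2 groups in the fit and with limma (adjusted p = 0.0755 and 0.0925).

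Over all members the median log2 fold change was -0.10, beside 0.00 for all genes tested, with a range of -1.12 to 0.61. Mean values were below unsprayed wild type for 67 members and above for 27. Every DEX-sprayed library was lower than every unsprayed one in 38 members and higher in 12, beside 22.9% and 23.0% of all genes tested. RBCS2B and RBCS1B, at log2 fold changes of -0.36 and -0.47, and MYB34, at 0.44, did not pass the test (edgeR adjusted p = 0.377, 0.424 and 0.616). HB-8, MUTE and NIK1 had log2 fold changes of -0.07, -0.07 and -0.05, with edgeR adjusted p of 0.862, 0.954 and 0.931.

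**Figure D5:**
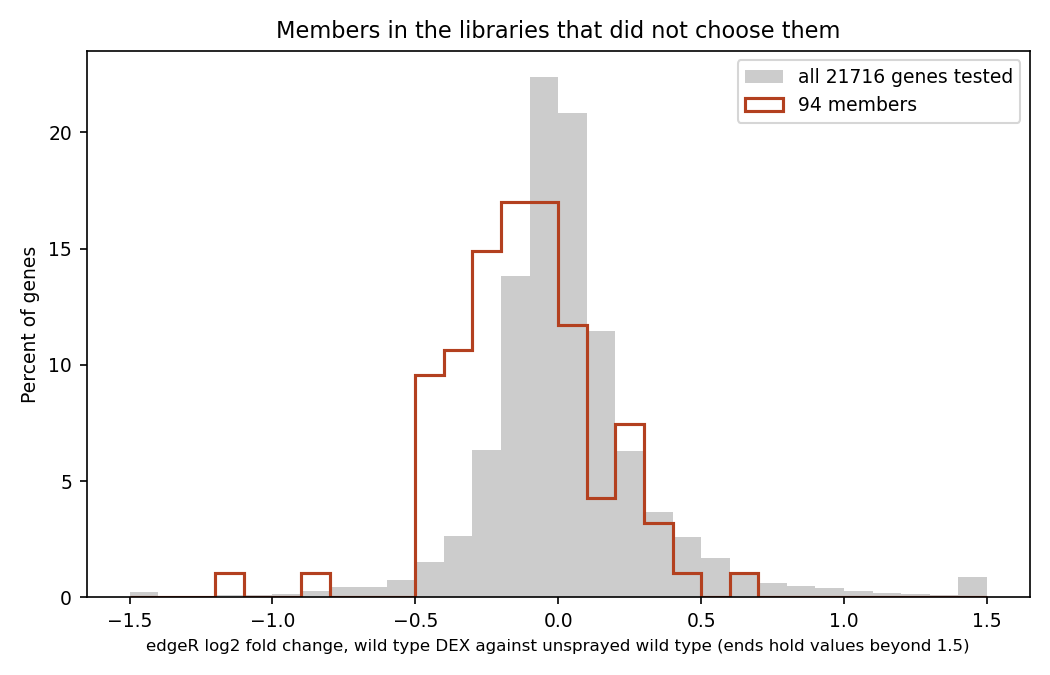
The x axis is edgeR's log2 fold change of DEX-sprayed against unsprayed wild type, with values beyond 1.5 put in the end bins, and the y axis the percent of genes; grey is all 21716 genes tested and the red outline the 94 members. The member outline sits to the left of the grey, with a median of -0.10 against 0.00, and the 2 genes that passed the test are the 2 lowest bins.

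Of 14 gene lists for the pathways around STM, 3 held members. Their counts in the contrasts that chose the members include those members, whose direction the choice fixed. Among 30 vascular and procambium genes tested, edgeR called 7 lower and 1 higher after induction, beside 7.15% and 5.56% of all genes, and 8 higher and 1 lower in the microRNA line against ap1-1, beside 4.87% and 11.4%. HB-8 was in both larger counts. Its relative REV rose in both, by 0.52 ± 0.07 and 0.37 ± 0.08 on the log2 scale (SE; edgeR adjusted p = 1.94e-04 and 0.00380). PHB and PHV fell after induction, by 0.23 ± 0.05 and 0.28 ± 0.07, and rose in the microRNA line, by 0.23 ± 0.06 and 0.24 ± 0.07 (edgeR adjusted p = 0.0142, 0.0125, 0.0179 and 0.0343). The list's median log2 fold changes were -0.12 and 0.19, beside 0.01 and -0.00 for all genes.

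Among 20 lateral organ and polarity genes, 6 were called higher and 2 lower after induction, beside 5.56% and 7.15% of all genes. In the microRNA line 4 were called higher and 2 lower, beside 4.87% and 11.4%. YAB3 and YAB5, YABBY factors, were the 2 lower after induction, while KAN, a KANADI polarity factor, rose by 1.53 ± 0.12 and AS1, a MYB factor of leaf identity, by 0.64 ± 0.07 on the log2 scale (SE; edgeR adjusted p = 1.26e-06 and 1.68e-05). Among 23 cell wall growth genes, 6 were called lower and 1 higher after induction, beside 7.15% and 5.56% of all genes. In the microRNA line 4 were called higher and 5 lower, beside 4.87% and 11.4%. The 5 lower ones went the other way from PME5, whose direction the choice fixed. The expansins EXPA6 and EXPA10 moved as PME5 did, falling after induction by 0.68 ± 0.10 and 1.04 ± 0.16 and rising in the microRNA line by 0.36 ± 0.11 and 0.58 ± 0.17 (SE; edgeR adjusted p = 3.01e-04, 6.53e-04, 0.0283 and 0.0330). In wild type with DEX, edgeR called 0 genes of these 3 lists in either direction. The other 11 lists, among them cytokinin, auxin, gibberellin, cell cycle, epidermis and flavonoid genes, held no member as matched by symbol. Some of them still had many calls. Of 14 flavonoid genes tested, 7 were lower and 0 higher after induction, and 5 higher and 0 lower in the microRNA line. Of 8 type-A cytokinin response regulators, 4 were lower and 0 higher, then 3 higher and 0 lower. Of 26 epidermis and cuticle genes, 13 were lower and 0 higher, then 0 higher and 4 lower. Names that matched no gene or several, such as E2FA and RGA, were left out. Others, such as CHI (AT2G43570) and ARF3 (AT2G24765), may have matched a gene other than the one meant. A list without members thus does not show that its pathway held none.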

How the data were processed

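RNA sequencing of 15 libraries was analysed in 6 groups taken from the sample labels. The authors deposited 1 table of gene counts per library, for which the submitters' processing notes name TopHat2 2.0.6, HTSeq 0.62 and the build TAIR10. The deposited normalized signal over all libraries, made by the authors with DESeq2 per those notes, chose the members and gave the values printed. The strand setting and the treatment of reads with several matches are not given in the sources used here, and 23 members overlap another annotated gene. The 5 entries that name no gene (5.49% to 6.63% of reads) stayed out. The titles' replicate numbers were used, since the descriptions of DEX-sprayed wild type number them otherwise.

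Differences were tested with edgeR 4.0.16 in R 4.3.3 on counts: filterByExpr with a minimum count of 10 over the 6 groups (21716 genes), TMM scaling, and glmQLFit with glmQLFTest on all 15 libraries together, called at an adjusted p under 0.05. The SE is the log2 fold change over the square root of F, and the biological coefficient of variation was 9.85%. All 94 members passed the filter. The test was run on simulated counts first. DESeq2 1.42.0, limma 3.58.1 on log2(normalized value + 1), other filters and fits, and leaving out each library were alternatives. A count's precision follows the library totals, and floors were not needed.

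Names, exon lengths and sequences came from RefSeq TAIR10.1, matched by locus (28009 of 28775 genes, all members). Members, gene lists and marker lists were chosen with earlier results of these data known. Members named had a symbol and belonged to a gene list, ranked in the highest 8 microRNA line to ap1-1 ratios, the lowest 8 DEX to mock ratios or the highest 6 levels per kilobase, were described as a transcription factor, homeobox, receptor, kinase or the like (at most 12), or lay next to a limit. Those the report says were named after their values were seen are exceptions.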

Additional observations from a re-analysis of the deposited data

How the results depend on the processing

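The number of members was 90 with TMM scaling (88 shared with the 94), 76 at a level of 100, 9 at a fold of 1.5, 285 at 1.2, and 96 to 133 on leaving out 1 library of the choosing groups, since fewer libraries then have to stand apart. In DEX-sprayed against unsprayed wild type, members called lower numbered 2 in edgeR, DESeq2, the fit without a low-count filter and the fit with DESeq2 size factors, 1 with only the groups compared, 1 with limma, and 0 to 2 on leaving out a library. Members called higher numbered 0 in each of these. The members' median log2 fold change was -0.17 to -0.03 on leaving out a library. Leaving out the first unsprayed library gave the lower end and leaving out the second the upper. Counts over all genes in that comparison, 105 higher and 29 lower, became 165 and 77 with DESeq2, 60 and 6 with only the groups compared, 18 lower with limma, and 38 to 158 higher and 1 to 104 lower on leaving out a library. After induction, 1207 higher and 1553 lower became 2262 and 2792 with only the groups compared, and 657 to 1110 and 809 to 1403 without a library. For the microRNA line against ap1-1, 1057 higher and 2475 lower became 344 and 1603 with only the groups compared, and 318 to 1296 and 1332 to 2756 without a library. List genes higher there, 42, became 18 with only the groups compared and 19 to 46 without a library, and list genes lower, 31, were 16 to 39. The cause of these moves was not tested. Titles share replicate numbers, and same-numbered deviations correlated at -0.13 to 0.08, so no pairing by these numbers was seen. With 2 or 3 libraries a group, and other numbers in the descriptions of DEX-sprayed wild type, this check cannot exclude pairing. A replicate block by title number left 2 members called lower and 0 higher, with 107 and 33 of all genes called. Comparisons rest on 2 or 3 libraries a group, and unsprayed wild type and ap1-1 varied most between libraries.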
